A study of Mus musculus with 7 samples.

Results

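The collagen genes of the mouse adrenal gland were taken as every gene symbol made of Col, a type number, the letter a and a chain number. This gave 44 of the 35976 gene symbols measured, namely 11 genes for fibrillar collagens (types I, II, III, V, XI, XXIV and XXVII), 6 for the type IV collagens of basement membranes and 27 for other collagens. Whole adrenal glands of C57BL/6J mice were pooled, and 1 RNA sequencing library was made per pool. The E18.5 pool held 40 glands of embryos whose sex was not determined. The P1 pools held 16 glands from males and 22 from females, the 2-week pools held 6 each, and the 12-week pools held 4 each, again 1 pool of each sex. The labels name no transgene, mutation or treatment. Each group was a single pool, so the male and female pools served as the replicates of an age. The p-values below measure the spread left after age and sex, and not that among single animals. A change with age that differs between the sexes counts as spread.

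Collagens are secreted proteins in which 3 chains wind into a triple helix. Fibrillar collagens assemble into the fibres that give connective tissue, such as the adrenal capsule, its strength. Type IV collagen forms the sheet-like network of basement membranes, which surround the capillaries and the cords of steroid-producing cells, and the remaining types decorate fibrils, build beaded filaments or anchor cells.

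The libraries held between 15184210 and 23551289 reads in genes, and all 44 collagen genes averaged 10 normalized counts or more, the minimum for testing. This mean was taken over all 7 libraries. Low members such as Col2a1, Col9a1 and Col10a1 reached it only through the E18.5 and P1 libraries. A fall was the only large age change open to them, and they are among the genes counted as fallen below. The marker genes of the adrenal cortex and of chromaffin cells, the hormone-producing cells of the gland, were above the floor of 3 reads in all 7 libraries. The cortex markers summed to 537915 normalized counts at E18.5 and to 377136 and 247747 in the P1 male and female libraries. Their sums were 508252 and 513272 at 2 weeks and 839597 and 1118690 at 12 weeks. Markers of neighbouring tissue were also present at P1. The 8 skeletal muscle markers summed to 73415 and 138785 normalized counts in the P1 male and female libraries, 35668 at E18.5, 279 and 11134 at 2 weeks and 51.7 and 48.6 at 12 weeks; all 8 were called lower at 12 weeks than at P1, where 23.5% of all 16720 tested genes were. The 6 kidney markers summed to 2606 and 510.0 at P1 and to 0 and 2.26 at 12 weeks, and the 6 exocrine pancreas markers to 3647 and 70.6 at P1 and to 1.40 and 2.26 at 12 weeks. The 6 adipocyte markers went the other way, from sums of 561 and 1010 at P1 to 32349 and 35063 at 2 weeks and 26380 and 23008 at 12 weeks, and all 6 were called higher at 12 weeks than at P1, where 17.6% of all tested genes were. The 7 fibroblast and mural cell markers summed to 15631 and 15435 at P1 and to 9491 and 7427 at 12 weeks, and 6 of them fell over that span, again where 23.5% of all tested genes fell. The library labelled P1 female also held transcripts of 4 Y-linked genes, at a median of 21.02% of their level in the male library of the same age, against 0.0609% at 2 weeks and 0.0132% at 12 weeks. Fewer cells of a type and less RNA per cell cannot be told apart in such pools. The part of these other tissues in the collagen values was not tested.

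The collagens together were most abundant around birth and made a small share of the transcriptome in the adult. They took 1.50% of the reads in genes at E18.5, 1.77% and 1.73% in the P1 male and female libraries, 0.800% and 0.705% at 2 weeks, and 0.250% and 0.254% at 12 weeks. The 2 libraries of an age lay close together at each of the 3 postnatal ages, and no value of one age overlapped that of the next. At later ages fibrillar genes held a smaller part of the collagen reads and type IV genes a larger one. Fibrillar genes made 52.1% of collagen reads at E18.5, 55.0% and 57.2% at P1, 32.5% and 36.2% at 2 weeks, and 19.8% and 25.5% at 12 weeks. Type IV genes made 22.0% at E18.5, 21.5% and 17.3% at P1, 41.9% and 37.3% at 2 weeks, and 41.7% and 41.3% at 12 weeks. Other collagens made 25.9% at E18.5, 23.5% and 25.6% at P1, 25.6% and 26.5% at 2 weeks, and 38.5% and 33.2% at 12 weeks. In males the type IV share at 2 weeks (41.9%) was thus near that at 12 weeks (41.7%). In females it was lower at 2 weeks (37.3%) than at 12 weeks (41.3%). From 2 to 12 weeks the fibrillar share was lower again and the share of other collagens was higher. The 6 most abundant genes held between 68.4% and 71.3% of the collagen reads in every library.

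**Figure D1:**
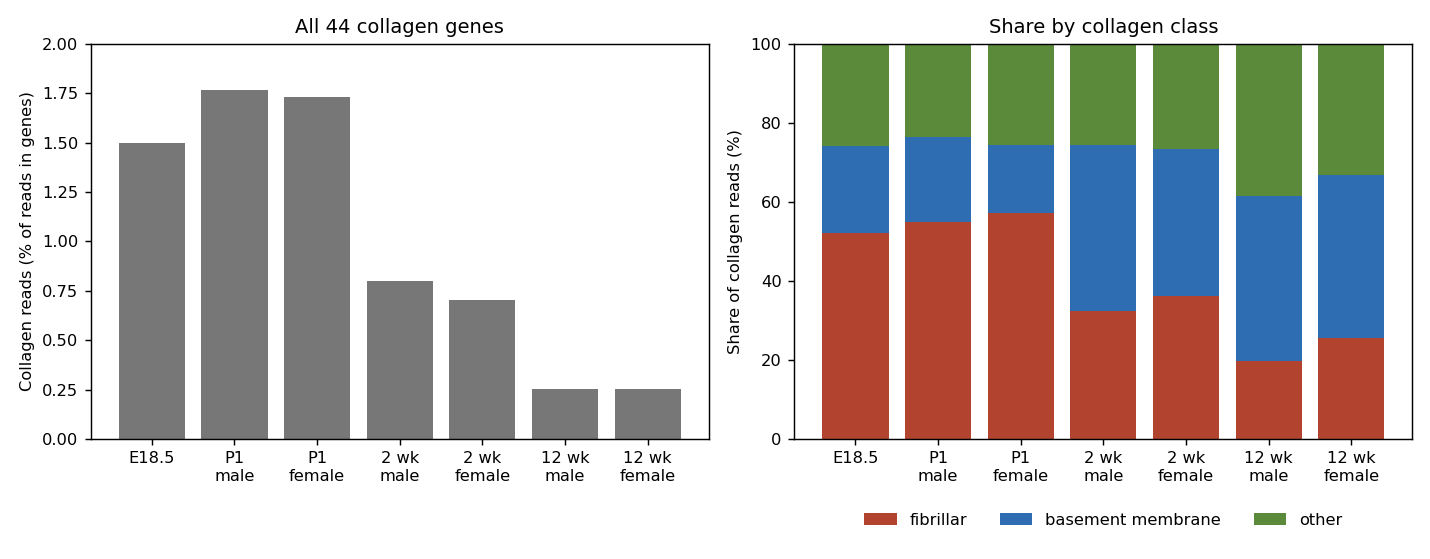
The left bars give the reads of all 44 collagen genes as a percentage of the reads in genes in each of the 7 libraries, and the right bars divide the collagen reads among fibrillar, basement membrane (type IV) and other collagens. Collagen reads were 1.77% in the P1 male library and 0.250% in the 12-week male library, and the fibrillar part was 55.0% and 19.8% of them.

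Per 1000 bases of coding sequence, the scale on which genes can be compared with each other, Col3a1 had the highest collagen level at P1, with 16366 normalized counts in the male and 19415 in the female library. At 12 weeks Col4a1, with 2438 and 2521 in males and females, and Col6a1, with 2437 and 2383, were the highest on this scale, and Col3a1 had 784 and 631. By age, 29 of the 44 genes had their highest mean at P1, 8 at E18.5 and 7 at 2 weeks, and none had it at 12 weeks. Of the 7 that were highest at 2 weeks, 4 were type IV genes. The lowest mean was at 12 weeks in 36 genes, at 2 weeks in 5 and at E18.5 in 3. The same counts were not made over all tested genes, so these are not read as particular to collagens. The E18.5 level is that of a single library, whereas the later ages are means of the male and female libraries. Genes at or under the read floor in some libraries are included.

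**Figure D2:**
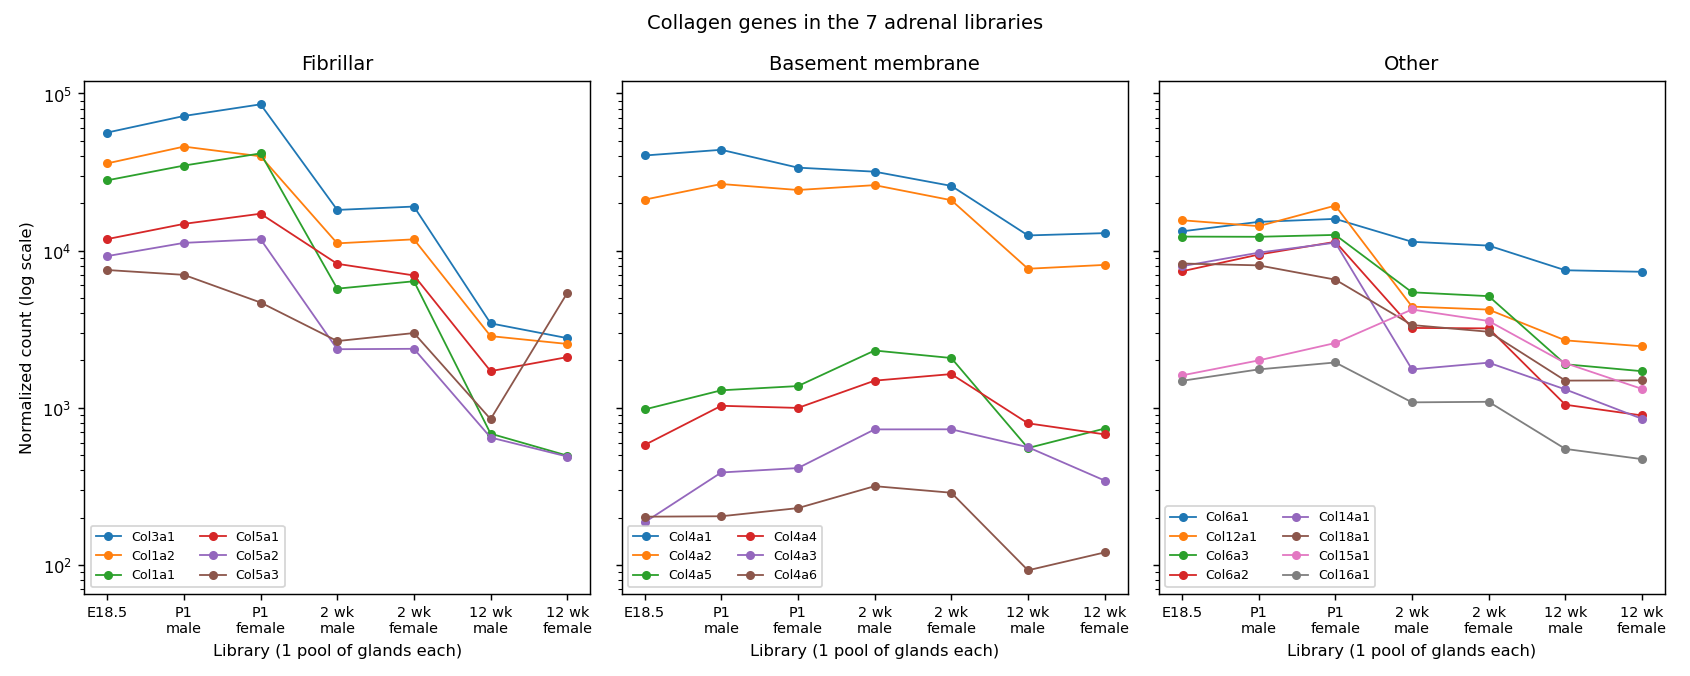
Each line is a collagen gene, with its normalized count on a log axis in the 7 libraries, for genes averaging 1000 normalized counts or more and for all 6 type IV genes. Fibrillar genes other than Col5a3 are lower at 2 weeks than at P1 and lower again at 12 weeks, type IV genes other than Col4a1 and Col4a2 are highest at 2 weeks, and Col5a3 in the 12-week female library (5377) lies far above the male one (846).

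Age differences were tested with limma over the 6 postnatal libraries with sex as a term, as log2 differences of normalized counts plus 1, later minus earlier age, with Benjamini-Hochberg adjusted p-values over 16720 genes. From P1 to 12 weeks 36 of the 44 collagens fell and 0 rose, where 23.5% of all tested genes fell and 17.6% rose. The median log2 difference of the 44 was -2.31, against -0.03 over all genes tested. By class, 10 of 11 fibrillar, 4 of 6 type IV and 22 of 27 other collagens fell, with median differences of -3.99, -1.05 and -2.28. Each of these 36 was lower at 12 weeks in both males and females. From P1 to 2 weeks 24 of the 44 fell and 2 rose, where 10.5% of all tested genes fell and 5.89% rose, and the median was -1.19. From 2 to 12 weeks 23 of 44 fell and 0 rose, where 9.89% fell and 5.40% rose, and the median was -1.15, or -1.14 with 3 genes under the floor left out and Col10a1 at its bound. These 3 comparisons share libraries and are not independent of each other.

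The P1 to 12 weeks count was between 28 and 38 when each library was left out in turn, with 28 without the P1 female library. In each of these fits fewer of all tested genes were called than with all libraries. The other 2 steps depended more on single libraries. Where an age kept 1 library, it was taken to vary like the others. From P1 to 2 weeks the collagen calls were lost without either P1 library and were fewer without either 2-week library. From 2 to 12 weeks the collagen calls were fewer when a P1 or a 2-week library was left out. Calls over all genes dropped as well each time, so these lower counts are not read as particular to collagens. With all genes having a mean above 0 in the fit, 32 collagens fell from P1 to 12 weeks, where 2974 of all genes fell. For both shorter steps that fit called 0 collagens and 0 of all genes, and 30 and 28 members had an unadjusted p under 0.05. At a minimum mean of 50 the P1 to 12 weeks count was 30, all of them falls, where 3127 of all genes fell. This minimum leaves out Col9a1 and Col10a1 but keeps Col2a1 (mean 88.2), so it does not remove every fall that the filter favoured.

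**Figure D3:**
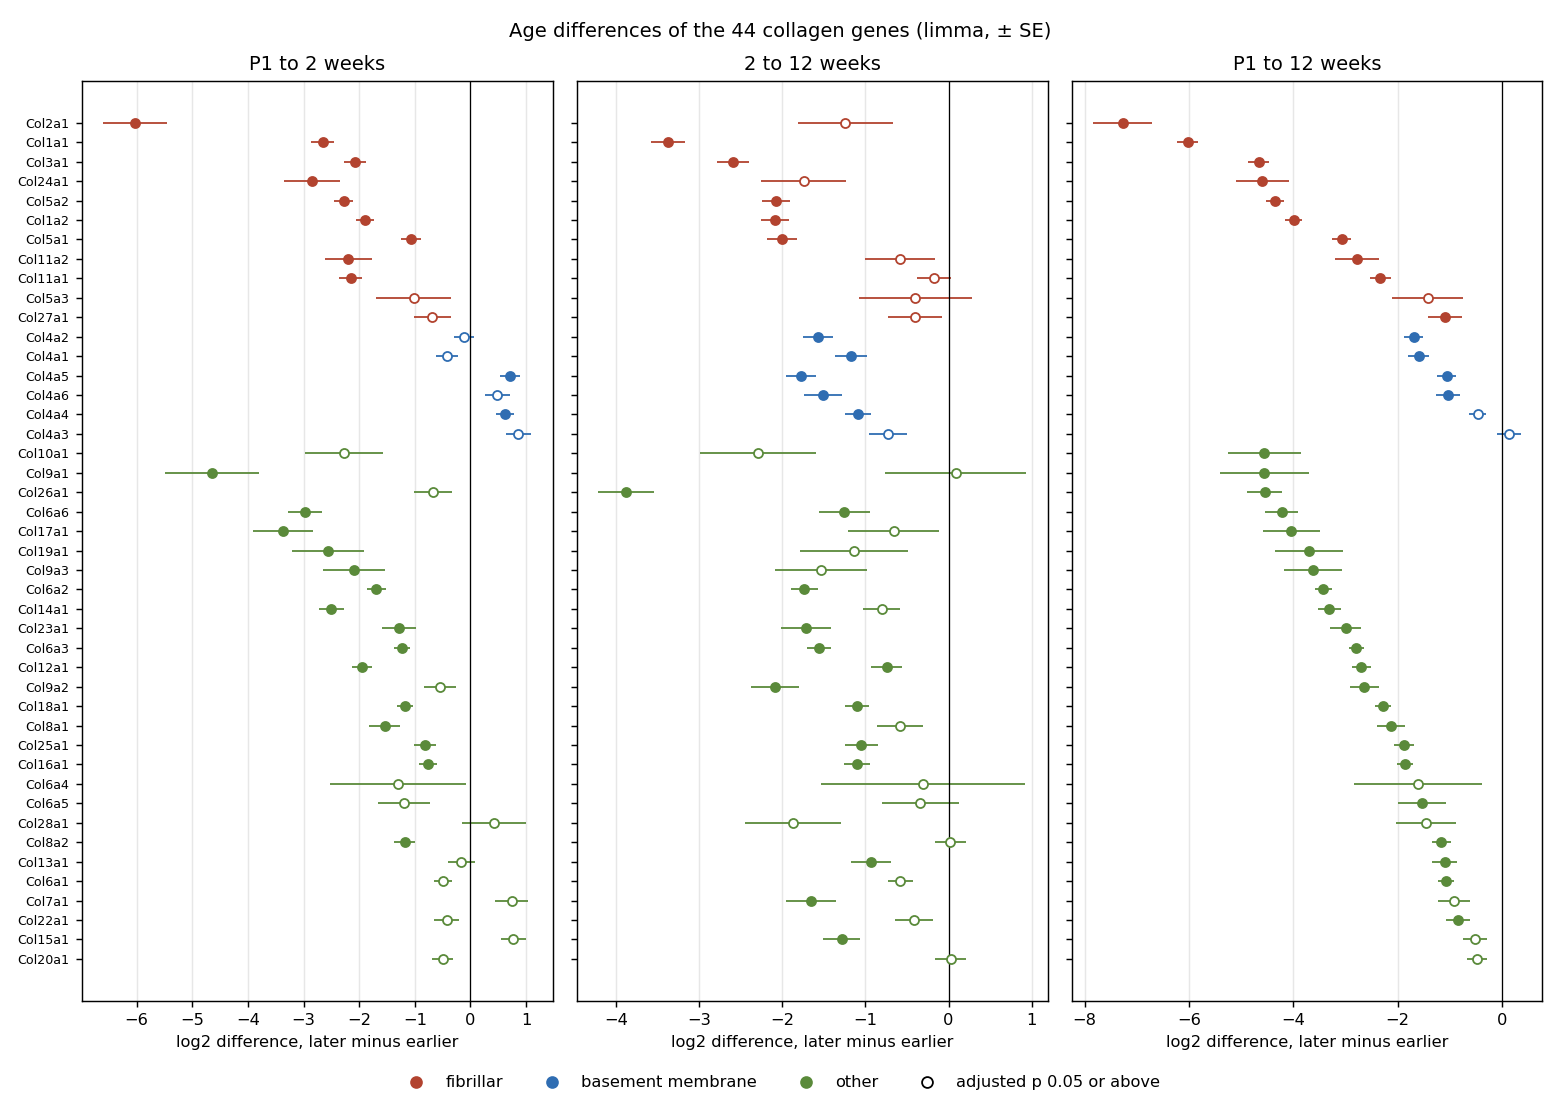
Points are limma log2 differences of the 44 collagen genes, later minus earlier age, with bars of 1 standard error, coloured by class; open points have an adjusted p of 0.05 or above. From P1 to 12 weeks 43 of the 44 estimates are below 0 and 36 passed the test, and the fibrillar genes Col2a1 and Col1a1 lie furthest left, at -7.27 and -6.03.

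The type I, III and V chains carried most of the fibrillar signal. Col1a1 encodes the alpha 1 chain of type I collagen, the main component of most collagen fibres (chr11:94936224-94953042, GRCm38, plus strand). It had 27996 normalized counts at E18.5, 34751 and 41548 in the P1 male and female libraries, 5723 and 6378 at 2 weeks, and 684 and 496 at 12 weeks. The 2-week libraries lay below all earlier ones, and the 12-week libraries below those. Its log2 difference from P1 to 12 weeks was -6.03 ± 0.21 (SE; limma adjusted p = 6.85e-05), 65.2-fold on this scale, with -2.65 ± 0.21 (adjusted p = 0.00182) of it before 2 weeks.

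Col1a2, which encodes the other type I chain, fell less. It had 35893 normalized counts at E18.5, 45894 and 39824 at P1, 11119 and 11791 at 2 weeks, and 2855 and 2546 at 12 weeks, a log2 difference from P1 to 12 weeks of -3.99 ± 0.16 (SE; limma adjusted p = 8.18e-05). Type I collagen is built mostly of 2 alpha 1 chains and 1 alpha 2 chain. The ratio of Col1a1 to Col1a2 counts was 0.780 at E18.5, 0.757 and 1.04 at P1, 0.515 and 0.541 at 2 weeks, and 0.239 and 0.195 at 12 weeks. The 12-week counting intervals, 0.217 to 0.264 in males and 0.175 to 0.216 in females (exact, 95%), lie under every earlier value.

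Col3a1 encodes type III collagen, which forms the fine reticular fibres of soft organs. It had 56392 normalized counts at E18.5, 71879.9 and 85273 at P1, 18144 and 19064 at 2 weeks, and 3442 and 2772 at 12 weeks, and its log2 difference from P1 to 12 weeks was -4.66 ± 0.20 (SE; limma adjusted p = 8.32e-05). The groups did not overlap from one postnatal age to the next. Col3a1 and the type V gene Col5a2 are neighbours on chromosome 1 (chr1:45311538-45349706, plus strand, and chr1:45374331-45503282, minus strand).

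Type V collagen sits inside type I fibrils and limits their diameter, and its 3 chains did not move alike. Col5a1 had 11832 normalized counts at E18.5, 14788 and 17163 at P1, 8237 and 6948 at 2 weeks, and 1709 and 2099 at 12 weeks, a log2 difference from P1 to 12 weeks of -3.07 ± 0.18 (SE; limma adjusted p = 0.000160). Col5a2 had 9223 at E18.5, 11195 and 11809 at P1, 2356 and 2371 at 2 weeks, and 646 and 489 at 12 weeks, a log2 difference of -4.35 ± 0.17 (adjusted p = 7.72e-05). The ratio of Col5a1 to Col5a2 counts was 1.32 and 1.45 at P1, 3.50 and 2.93 at 2 weeks, and 2.65 and 4.29 at 12 weeks. Col5a3 was the 1 fibrillar gene that did not pass from P1 to 12 weeks (log2 difference -1.42 ± 0.68, SE; adjusted p = 0.14), and its values are given with those of the sexes.

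The promoters of the fibrillar genes Col3a1, Col5a1 and Col5a3 are shown because the GENCODE annotation has no exon in their windows. Col3a1 and Col5a1 fell at both steps, and Col5a3 passed no age test. RefSeq promoter windows (GRCm38.p6) were found for 35 of the 44 genes. Capitals mark the motifs searched on both strands, the CCAAT box (CCAAT), the TATA box (TATAAA), the GC box (GGGCGG) and the NR5A1 site (AAGGTCA), the letters bound by NR5A1, a main transcription factor of steroid-producing cells. The windows are chr1:45311288-45311537 (plus strand), chr2:27886175-27886380 (plus strand) and chr9:20815118-20815317 (minus strand). They were trimmed to lie outside the RefSeq gene, which begins inside the 250 bases for Col5a1 and Col5a3.
Col3a1: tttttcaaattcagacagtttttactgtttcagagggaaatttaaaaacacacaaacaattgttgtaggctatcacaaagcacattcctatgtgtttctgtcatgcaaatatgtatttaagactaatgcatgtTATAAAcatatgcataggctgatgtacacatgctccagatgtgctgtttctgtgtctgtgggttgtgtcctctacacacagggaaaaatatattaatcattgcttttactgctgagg
Col5a1: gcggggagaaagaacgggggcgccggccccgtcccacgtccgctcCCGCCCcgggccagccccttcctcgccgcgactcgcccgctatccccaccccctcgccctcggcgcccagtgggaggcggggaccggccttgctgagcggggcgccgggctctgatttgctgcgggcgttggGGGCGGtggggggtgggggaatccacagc
Col5a3: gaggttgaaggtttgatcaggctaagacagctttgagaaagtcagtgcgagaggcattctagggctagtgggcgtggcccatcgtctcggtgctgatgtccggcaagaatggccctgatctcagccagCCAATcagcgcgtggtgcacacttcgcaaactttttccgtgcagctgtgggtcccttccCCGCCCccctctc
The printed stretches hold a TATAAA match in Col3a1, 2 GC boxes in Col5a1, and a CCAAT and 1 GC box in Col5a3. The full 250 bases upstream of the start had 35.2% G and C in Col3a1, 76.4% in Col5a1 and 62.8% in Col5a3. In the 250 bases upstream of the start, CCAAT was in 12 of 35 collagen windows (34.3%) and 34.5% of 27025 promoters, and TATAAA in 5 (14.3%) and 12.97%. GGGCGG was in 21 (60.0%) against 32.9%, and AAGGTCA in 5 (14.3%) against 4.05%. Many of the collagen windows, such as those of Col1a2, Col4a1 and Col4a2, hold annotated exons, so part of the counted sequence is transcribed. These are counts of letters in the windows, and no test was made of them.

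Type II, IX, X and XI collagens are known from cartilage. Col2a1, the main collagen of cartilage, had 92.4 normalized counts at E18.5, 362 and 157 at P1, 2.67 and 2.65 at 2 weeks, and 1.40 (1 read) and 0 at 12 weeks. All 4 later libraries were at or under 3 reads. The 12-week male level was 259-fold lower than at P1 (95% counting interval 46.2 to 10240), and the female level was at least 46.2-fold lower, computed against 3 reads in the 12-week library. Col9a1 had 16.0 at E18.5 and fell from 49.9 and 22.1 at P1 to 0.890 and 0 at 2 weeks and 0 and 1.13 at 12 weeks (limma adjusted p = 0.00683 from P1 to 12 weeks). Col10a1, of growth-plate cartilage, had 11.8 at E18.5, 45.8 and 24.3 at P1, 5.34 and 7.06 at 2 weeks, and 0 and 1.13 at 12 weeks (adjusted p = 0.00329). Col2a1, Col9a1 and Col10a1 reached the minimum mean only through the E18.5 and P1 libraries, so the filter favoured a fall. The 6 cartilage markers in the table summed to between 266 and 1190 normalized counts in the 7 libraries. Of these, 4 were abundant enough to be tested. From P1 to 2 weeks 3 of the 4 fell (Acan, Comp and Sox9), where 10.5% of all tested genes fell. From 2 to 12 weeks 0 fell and 1 rose (Acan), where 9.89% of all tested genes fell and 5.40% rose. From P1 to 12 weeks 2 fell (Comp, adjusted p = 0.0272, and Sox9, adjusted p = 0.00653), where 23.5% fell. Acan had 288 and 55.2 normalized counts at P1, 18.7 and 14.1 at 2 weeks, and 815 and 60.0 at 12 weeks. Comp had 40.1 and 19.9 at P1, 0 and 1.76 at 2 weeks, and 4.19 and 0 at 12 weeks. It too reached the minimum mean only through the E18.5 and P1 libraries. Sox9 had 130.9 and 94.9 at P1, 32.0 and 25.6 at 2 weeks, and 41.9 and 16.97 at 12 weeks. Hapln1 passed no age test, and Matn1 was at 0 in all libraries but P1 male. The part of cartilage in these values was not tested. Col11a1 kept 161 and 200.3 normalized counts at 12 weeks, after 917 and 895 at P1, and had fallen by 2 weeks (218 and 189; log2 difference -2.15 ± 0.20, SE; adjusted p = 0.00295).

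The 6 type IV genes lie in 3 head-to-head pairs. Col4a1 (chr8:11198423-11312889, minus strand) and Col4a2 (chr8:11312805-11449287, plus strand) encode the chains of the common basement membrane network. Col4a1 had 40286 normalized counts at E18.5, 43797 and 33718 at P1, 31786 and 25806 at 2 weeks, and 12485 and 12915 at 12 weeks. Col4a2 had 21091 at E18.5, 26527 and 24299 at P1, 26090 and 20927 at 2 weeks, and 7663 and 8107 at 12 weeks. The P1 and 2-week values of Col4a2 overlapped, and only 12 weeks stood apart. The P1 to 2 weeks differences did not pass the test (-0.42 ± 0.20, adjusted p = 0.19, and -0.12 ± 0.18, adjusted p = 0.69, SE), and both genes fell from 2 to 12 weeks by 1.17 ± 0.20 and 1.57 ± 0.18 on the log2 scale (limma adjusted p = 0.0125 and 0.00390). Their ratio stayed between 1.22 and 1.91 in the 7 libraries.

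Col4a3 and Col4a4 encode chains of the network found in the kidney glomerulus and lie head to head on chromosome 1 (chr1:82586921-82722059, plus strand, and chr1:82448419-82587034, minus strand). Col4a3 had 187 normalized counts at E18.5, 387 and 413 at P1, 728 and 729 at 2 weeks, and 561 and 344 at 12 weeks. Col4a4 had 579 at E18.5, 1029 and 997 at P1, 1486 and 1637 at 2 weeks, and 796 and 677 at 12 weeks. Both were highest at 2 weeks in both sexes. Col4a4 rose from P1 to 2 weeks by 0.62 ± 0.16 (SE; limma adjusted p = 0.0429) and fell from 2 to 12 weeks by 1.09 ± 0.16 on the log2 scale (adjusted p = 0.00787), whereas Col4a3 passed neither step (0.86 ± 0.23, adjusted p = 0.0509, and -0.73 ± 0.23, adjusted p = 0.0823). Col4a3 was the 1 collagen with a positive estimate from P1 to 12 weeks (0.14 ± 0.23, adjusted p = 0.67).

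The remaining pair is X-linked. Col4a5 (chrX:141475370-141689236, plus strand), a partner of the Col4a3 and Col4a4 chains, had 975 normalized counts at E18.5, 1290.4 and 1373 at P1, 2312 and 2071 at 2 weeks, and 554 and 737 at 12 weeks. It rose from P1 to 2 weeks by 0.72 ± 0.18 (SE; limma adjusted p = 0.0400) and fell from 2 to 12 weeks by 1.78 ± 0.18 on the log2 scale (adjusted p = 0.00246). Col4a6 (chrX:141165403-141474095, minus strand) was lower, with 317 and 288 at 2 weeks and 92.3 and 119.9 at 12 weeks, falling over that step by 1.51 ± 0.23 (adjusted p = 0.00855). The rises of Col4a4 and Col4a5 did not pass when a P1 or a 2-week library was left out, with all genes having a mean above 0 in the fit, or without a trend in eBayes. The pairs on chromosomes 8 and 1 overlap at their starts in the annotation, and reads there could not be assigned to a gene unless strand was used, which the labels do not say.

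**Figure D4:**
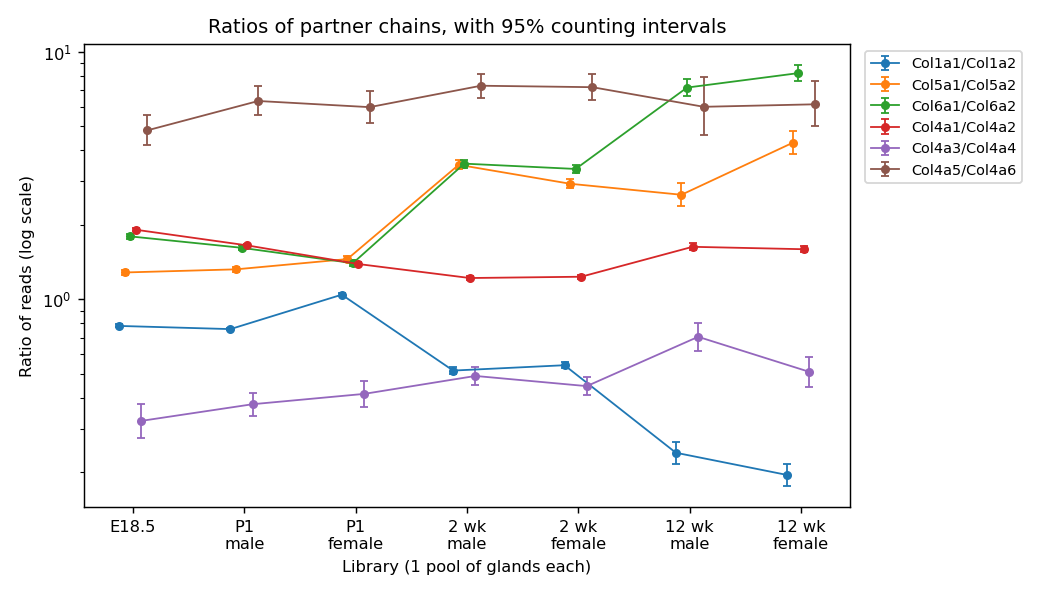
Ratios of the normalized counts of partner chains in each library on a log axis, with exact 95% counting intervals. Col1a1/Col1a2 drops from 0.757 and 1.04 at P1 to 0.239 and 0.195 at 12 weeks and Col6a1/Col6a2 climbs from 1.61 and 1.40 to 7.18 and 8.21, while Col4a1/Col4a2 stays between 1.22 and 1.91.

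Type VI collagen builds beaded filaments close to cells. Col6a1 was among the steadiest abundant collagens, with 13254 normalized counts at E18.5, 15228 and 15914 at P1, 11378 and 10757 at 2 weeks, and 7494 and 7329 at 12 weeks. Between P1 and 12 weeks it fell by 1.07 ± 0.15 on the log2 scale (limma adjusted p = 0.00261). Its partner Col6a2 had 7383 at E18.5, 9431 and 11372 at P1, 3219 and 3198 at 2 weeks, and 1044 and 893 at 12 weeks, and fell by 3.42 ± 0.17 (adjusted p = 0.000107). The Col6a1 to Col6a2 ratio was 1.795 at E18.5, 1.61 and 1.40 at P1, 3.53 and 3.36 at 2 weeks, and 7.18 and 8.21 at 12 weeks. The counting intervals of the ratio did not overlap between postnatal ages, and the difference between the chains was not tested over replicates. Col6a3, the longest of the 3 main chains, had 12274 at E18.5, 12239 and 12582 at P1, 5426 and 5128 at 2 weeks, and 1890.3 and 1707 at 12 weeks, and fell by 2.79 ± 0.14 (adjusted p = 0.000112).

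Fibril-associated collagens coat fibrils and link them to their surroundings. Col12a1 had 15598 normalized counts at E18.5, 14303 and 19329.9 at P1, 4401 and 4211 at 2 weeks, and 2683 and 2459.6 at 12 weeks, a log2 difference from P1 to 12 weeks of -2.69 ± 0.18 (SE; limma adjusted p = 0.000219). Col14a1 had 7954 at E18.5, 9698 and 11231 at P1, 1752 and 1935 at 2 weeks, and 1307 and 849.7 at 12 weeks, a log2 difference of -3.31 ± 0.23 (adjusted p = 0.000216). Most of either decline was already present at 2 weeks. Col16a1 had 1483 at E18.5, 1753 and 1940.5 at P1, 1082 and 1090.4 at 2 weeks, and 547 and 471 at 12 weeks (-1.86 ± 0.16, adjusted p = 0.000404). Col20a1 was nearly level from 2 to 12 weeks, with 476 at E18.5, 371 and 421 at P1, 289 and 269 at 2 weeks, and 289 and 278 at 12 weeks. It passed no test.

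Col18a1 and Col15a1, the multiplexins of basement membrane zones, went different ways after birth. Col18a1 had 8275 normalized counts at E18.5, 8053 and 6533 at P1, 3358 and 3044 at 2 weeks, and 1488 and 1492 at 12 weeks. Between P1 and 12 weeks it fell by 2.28 ± 0.15 on the log2 scale (SE; limma adjusted p = 0.000189). Col15a1 had 1606 at E18.5, 1999.8 and 2581 at P1, 4218 and 3562 at 2 weeks, and 1921 and 1317 at 12 weeks. Its 2-week libraries were above all others, with a P1 to 2 weeks difference of 0.77 ± 0.23 (adjusted p = 0.0650) that did not pass, and it fell from 2 to 12 weeks by 1.28 ± 0.23 (adjusted p = 0.0146). Col7a1, of anchoring fibrils, had a like course at a lower level (108 at E18.5, 89.2 and 61.8 at P1, 117 and 132 at 2 weeks, 40.5 and 37.3 at 12 weeks) and fell from 2 to 12 weeks by 1.65 ± 0.30 (adjusted p = 0.0167). Col26a1 had 175 at E18.5, 326 and 316 at P1, 176 and 230.3 at 2 weeks, and 8.39 and 19.2 at 12 weeks, the largest called difference from 2 to 12 weeks (-3.88 ± 0.34, adjusted p = 0.00160). Col8a2, a short-chain network collagen, had 554 at E18.5, 525 and 564 at P1, 213 and 269 at 2 weeks, and 242 and 244 at 12 weeks, and its fall was over by 2 weeks (-1.18 ± 0.19, adjusted p = 0.0107).

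With 1 unsexed library at E18.5 there was no test of the change around birth. On the log2 scale with 1 added, Col4a3 was the 1 collagen of the 44 at least 2-fold higher in both P1 libraries (187 at E18.5 against 387 and 413), with 0 genes at least 2-fold lower. Over all tested genes 2.91% were at least 2-fold higher and 2.24% lower in both. The plain Col4a3 ratio of P1 to E18.5 was 2.08 in males (95% counting interval 1.77 to 2.44) and 2.21 in females (1.87 to 2.62). Without the added 1, Col10a1 also passed 2-fold, from a low level, with ratios of 3.90 and 2.06 resting on 56 and 22 reads at P1 and 14 at E18.5.

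No collagen passed the test of sex over the postnatal ages. The limma test called 0 of the 16720 genes higher in males, not even a Y-linked one, so it can miss real sex differences. In the limma fit with age as a term 0 of 44 had an adjusted p under 0.05 and 0 had an unadjusted p under 0.05, where 0.00598% of all tested genes passed, edgeR called 0 with 1 at an unadjusted p under 0.05, and DESeq2 called 0. The library labelled P1 female, with its Y-linked transcripts at 21.02% of the male level, is in this test and in the P1 counts below; without it 0 of 44 passed, and its part in the P1 differences was not tested. Single ages have 1 library per sex and no test. On the log2 scale with 1 added, 3 collagens were at least 2-fold higher and 1 lower in the P1 male than in the P1 female library (3.75% and 3.03% of all tested genes), 0 were so at 2 weeks (0.568% and 3.67%), and 4 were higher and 7 lower in the male at 12 weeks (4.84% and 3.98%). Of these 11 genes at 12 weeks, Col2a1, Col9a1 and Col10a1 were at or under 3 reads in both libraries, so no fold is given for them.

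Col5a3 encodes the alpha 3 chain of type V collagen (chr9:20770050-20815117, minus strand) and was the 1 collagen over 4-fold apart between the sexes with at least 100 normalized counts. It had 7522 normalized counts at E18.5, 7007 and 4671 in the P1 male and female libraries, 2655 and 2986 at 2 weeks, and 846 and 5377 at 12 weeks. The 12-week female library lay above the 2-week libraries and the male one below them, a female to male ratio of 6.36 (95% counting interval 5.84 to 6.93). Its 2 to 12 weeks difference was -0.40 ± 0.68 (SE, limma adjusted p = 0.73) with all libraries. The estimate was 1.04 without the 12-week male library and -1.84 without the 12-week female one. Its P1 to 12 weeks difference was likewise 0.014 without the male and -2.86 without the female library. Each of these fits keeps 1 library at 12 weeks, so no p-value is given for them. Col6a4, chosen after its values were seen, showed the same order at a low level, with 2.80 (2 reads) in the 12-week male and 73.5 in the female library, a ratio of 26.3 (6.99 to 222). In the opposite direction, Col28a1 had 209.7 in the 12-week male and 70.1 in the female library, and Col6a5 had 440.4 and 179.9. Col28a1, a collagen of peripheral nerve, had 248 at E18.5 and 472 and 423 at 2 weeks, and was 218 in the P1 male and 513 in the P1 female library, where the 6 Schwann cell markers summed to 1249 and 5854; their part in this was not tested. Akr1c18 and Pik3c2g, genes of the X-zone, the innermost part of the cortex in young and female mice, were also chosen after their values were seen. They had 2.80 and 0 normalized counts in the 12-week male library and 774 and 28.3 in the female one, after 5346 and 60.5 in the 2-week male and 26949 and 500.2 in the 2-week female library. Their part in the Col5a3 difference was not tested.

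**Figure D5:**
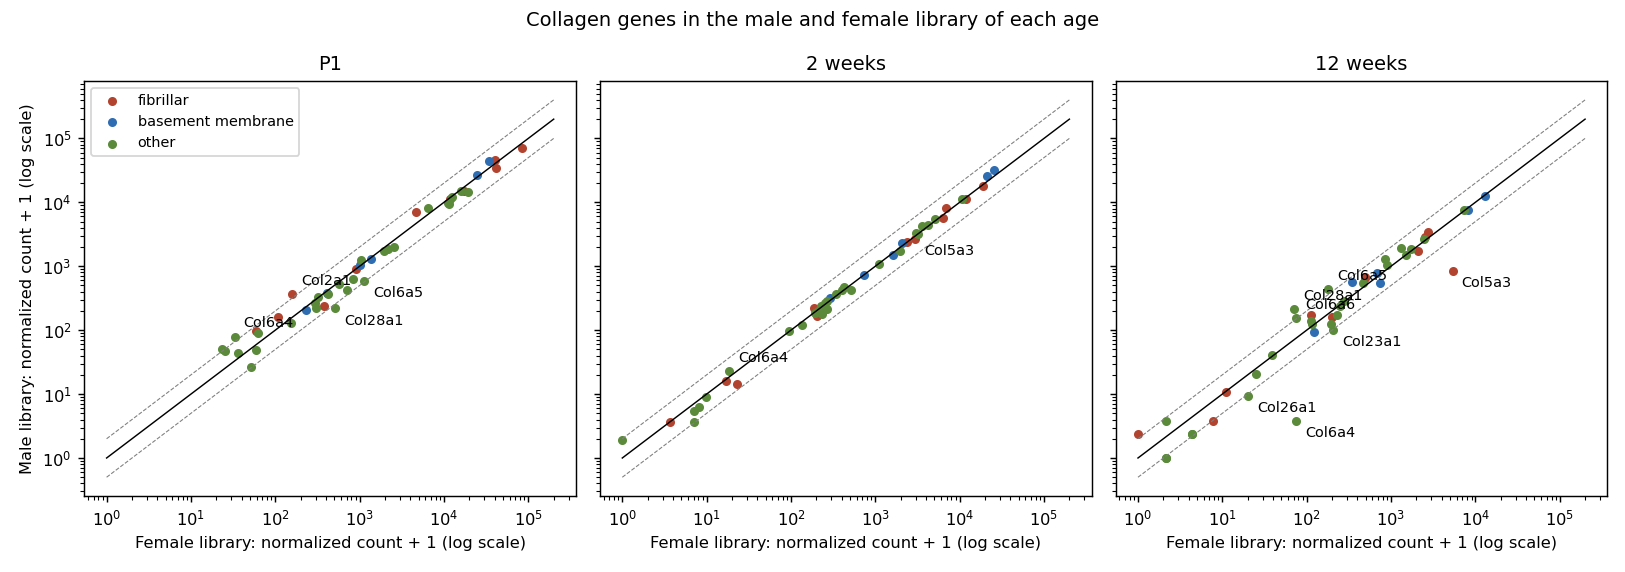
Each point is a collagen gene, with the female library of an age on the x axis and the male library on the y axis (normalized counts plus 1, log axes); the solid line marks equal values and the dashed lines 2-fold differences. All 44 genes lie within 2-fold at 2 weeks, and at 12 weeks Col5a3 (846 in the male, 5377 in the female library) and Col6a4 lie below the dashed lines.

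The genes that modify, cross-link and accompany collagen were counted from fixed lists, from P1 to 12 weeks, where 23.5% of all tested genes fell and 17.6% rose. All 5 lysyl oxidases, the enzymes that cross-link fibrils, fell, led by Lox (-4.86 ± 0.21, SE; limma adjusted p = 8.40e-05). Of 14 fibril-associated proteoglycans and glycoproteins 11 fell and 1 rose, with Fbn2, a microfibril component, at -6.08 ± 0.38 (adjusted p = 0.000174) and Fn1, fibronectin, at -4.67 ± 0.26 (adjusted p = 0.000134), while Prelp rose by 1.20 ± 0.22 (adjusted p = 0.00665). Of 16 basement membrane partners 13 fell and 1 rose, with the linkers Nid2 at -2.63 ± 0.14 (adjusted p = 0.000126) and Nid1 at -2.12 ± 0.15 (adjusted p = 0.000262), and the laminin chain Lamc3 higher by 1.27 ± 0.16 (adjusted p = 0.00184).

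Of 20 enzymes and chaperones that fold and modify collagen chains inside the cell, 7 fell and 2 rose. Their shares, and those of the proteinases and receptors that follow, lie nearer to the 23.5% and 17.6% over all tested genes, and nothing is read from them about the lists. The collagen chaperone Serpinh1 fell by 0.995 ± 0.143 on the log2 scale (SE; limma adjusted p = 0.00264), the prolyl hydroxylase subunit P4ha3 fell by 4.69 ± 0.43 (adjusted p = 0.000539), whereas P4ha1 rose by 0.74 ± 0.14 (adjusted p = 0.00821) and Colgalt2, which adds galactose to collagen, by 1.805 ± 0.198 (adjusted p = 0.000975). Of 8 procollagen proteinases and enhancers 3 fell, among them Adamts2 (-2.21 ± 0.18, adjusted p = 0.000356), and Tll1 rose by 1.87 ± 0.26 (adjusted p = 0.00220). Of 9 collagen receptors tested 3 fell, among them the integrin chain Itga2 (-2.73 ± 0.25, adjusted p = 0.000539), and Itga1 rose by 0.59 ± 0.13 (adjusted p = 0.0147).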

How the data were processed

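Whole-gland RNA libraries, 1 pool per group, were compared. The authors deposited a table of normalized counts (a signal per gene), in which read counts were divided by 1 size factor per library. CASAVA 1.8.2, HISAT2 2.1.0, HTSeq 0.9.1, DESeq2 2.11.40.6 and the build mm10 are named, per the submitters' processing notes, with no roles; the annotation and strand setting are not given in the sources used here. Whole reads were recovered from the deposited signal: 100% of values in each library came out within 0.01 reads of a whole number. A read floor of 3 and exact 95% binomial intervals cover counting error only.

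The models used limma 3.58.1 under R 4.3.3, namely lmFit and then eBayes with a trend, two-sided, on log2(normalized count + 1) of the 6 postnatal libraries, for 16720 genes with a mean of at least 10 over the 7 libraries, with age and sex as terms, 2 residual degrees of freedom and an adjusted p threshold of 0.05. This scale understates changes of low genes. Alternatives were edgeR 4.0.16 and DESeq2 1.42.0 on recovered reads, other pseudocounts, filters and scalings, and leaving out each library; from P1 to 12 weeks edgeR called 6754 genes. The fit was tested on simulated data. The printed promoters were cut from 7 to 3 after their windows were seen, for overlap with annotated exons or genes. Coding lengths came from GENCODE and positions from RefSeq, both GRCm38. Values in every library were printed for collagens with a mean of at least 1000, the largest rise or fall among those that passed in each class, members over 4-fold apart between the sexes with at least 100 normalized counts, and members that moved against most of their class; Col4a6, Col6a4, Col6a5, Col11a1 and Col27a1 were named after their values were seen. From each gene list only the 2 highest, 2 most risen and 2 most fallen genes could be named. The members, lists and tests were chosen with earlier results of these data known.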

Additional observations from a re-analysis of the deposited data

Results flagged for a closer look

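Between the sexes, 4 collagens had male to female ratios on opposite sides of 1 at P1 and 12 weeks, at least 1.5-fold each time and beyond counting error. The ratio was 0.629 and 1.56 for Col27a1, 2.45 and 0.0380 for Col6a4, 0.524 and 2.45 for Col6a5, and 0.424 and 2.99 for Col28a1. Between ages, Col5a3 and Col6a4 went opposite ways in males and females. From 2 to 12 weeks the ratio of the later to the earlier library was 0.319 in males and 1.801 in females for Col5a3, and 0.126 and 4.17 for Col6a4, whose 12-week male value rests on 2 reads. From P1 to 12 weeks the Col6a4 ratio was 0.0356 in males and 2.30 in females. Each value compares single pools, so none of these differences was tested, and the Col6a4 levels are low in every library (2.80 to 78.6 normalized counts).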

How the results depend on the processing

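Of the 53 tested age differences of named collagens that passed, 728 of 845 alternative values stayed on the same side of the threshold, 117 lost it and 0 changed direction. Counts of members called moved past 1.5 times in the shorter steps. With all genes having a mean above 0 they were 0 and 0, and without each library in turn 0 to 33 from P1 to 2 weeks and 9 to 31 from 2 to 12 weeks. E18.5 against P1 gave 2 genes with a pseudocount of 0.1 and 0 at 4-fold; the sexes gave 0 at 4-fold at P1, 2 with a pseudocount of 0.1 at 2 weeks, and 4 with a pseudocount of 10 and 2 at 4-fold at 12 weeks. The cause was not tested. Equal totals shifted the median of all genes by -0.19 from 2 to 12 weeks and -0.14 from P1 to 12 weeks and gave 647 higher and 2515 lower genes in the first, with members at 0 and 27, and 0 and 39. Under it the 2 to 12 weeks differences of Col20a1 and Col8a2 were -0.14 and -0.15. Estimates that did not pass and changed sign when 1 library was left out ranged over -0.63 to 1.47 for Col28a1 from P1 to 2 weeks, -0.27 to 0.028 for Col4a2 from P1 to 2 weeks, -1.84 to 1.04 for Col5a3 from 2 weeks to 12 weeks, -0.12 to 0.16 for Col8a2 from 2 weeks to 12 weeks, -0.058 to 0.11 for Col20a1 from 2 weeks to 12 weeks, -0.97 to 1.15 for Col9a1 from 2 weeks to 12 weeks, -0.24 to 0.51 for Col4a3 from P1 to 12 weeks and -2.86 to 0.014 for Col5a3 from P1 to 12 weeks. No paired analysis was possible because each group has 1 library and the labels give no replicate numbers.

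Per base of coding length, in the order E18.5, P1 male and female, 2-week male and female, 12-week male and female, the fibrillar share was 54.9, 57.3, 59.5, 33.4, 37.1 and 24.5% (without 12-week male, which kept within counting error); the type IV share was 20.1, 19.4, 15.6, 38.2, 33.6, 37.4 and 37.3%; the Col1a1/Col1a2 ratio was 0.737, 0.715, 0.985, 0.486 and 0.511 (without 12-week male and 12-week female, which kept within counting error); the Col5a1/Col5a2 ratio was 1.03, 1.06, 1.17, 2.80, 2.35, 2.12 and 3.44; the Col6a1/Col6a2 ratio was 1.98, 1.78, 1.54, 3.90, 3.71, 7.92 and 9.06. Per base of coding length the share of other collagens at 12 weeks was 42.7% in the male and 38.2% in the female library. These lay above the type IV shares of the same libraries, whereas by reads type IV held the larger part there. Ratios keep their course over age, since each is multiplied by 1 constant.

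Depth limits the low members: 8 and 6 collagens were at or under 3 reads in the 12-week male and female libraries. With 1 pool per group, differences among animals cannot be seen, and sex at a single age has no test.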
